A study of Mus musculus with 8 samples.

Results

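The nuclear-encoded subunits of the mitochondrial respiratory chain and the ATP synthase were examined in whole perigonadal adipose tissue of 4 mice with an adipocyte-specific gene knockout (KO) and 4 wild-type (WT) mice. Members were taken by gene symbol: NADH dehydrogenase subunits (complex I), the Sdh genes (complex II), the Uqcr genes and Cyc1 (complex III), cytochrome c oxidase subunits (complex IV) and the Atp5 genes (complex V). Assembly factors and the muscle-type subunits Cox8b and Cox7a1 were left out, and at least 10 counts summed over the 8 libraries were required. This gave 84 of the 23212 symbols, 37 in complex I, 4 in complex II, 9 in complex III, 17 in complex IV and 17 in complex V. Of these, 81 had enough counts to be tested, and Cox8c, Cox7b2 and Atp5g2 did not. Another 3 members meet the symbol rule but are not subunits: Cox4nb is an older name of the endoplasmic reticulum membrane complex gene Emc8, Atp5sl of the complex I assembly gene Dmac2, and Atp5s of its relative Dmac2l.

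All 8 mice were C57BL/6, 20 weeks old, and received a 45% fat diet for 12 weeks from 8 weeks of age; the labels describe the genotypes as matched for age and weight. The driver of the adipocyte-specific deletion is not given in the labels, and the WT mice are described by no other allele or treatment. Nothing in the labels points to pooled animals.

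The respiratory chain passes electrons from NADH and succinate to oxygen in the inner mitochondrial membrane. Complexes I, III and IV pump protons while doing so, complex II feeds in electrons from the citric acid cycle, and complex V, the ATP synthase, makes ATP from the resulting gradient. Most of its subunits are encoded in the nucleus and a few catalytic ones in mitochondrial DNA. White adipocytes hold fewer mitochondria than brown adipocytes, but their lipid synthesis and fatty acid oxidation depend on the same complexes, and the transcription factors NRF1 and GABPA with the coactivator PGC-1α are textbook regulators of these genes.

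The libraries held 46444435 to 51431956 counts. The tissue label was checked against adipocyte markers: the summed level of 10 markers, among them Adipoq and Plin1, was 34985 to 53361 CPM, the read count of a gene scaled to the size of its library, in KO and 37344 to 53538 CPM in WT. In whole tissue, fewer cells of a type and less RNA per cell cannot be told apart. A pair of libraries stood apart from the rest. Mouse KO 2 had 26.1 CPM of Foxj1, a regulator of motile cilia, and mouse WT 3 had 7.97 CPM, while the other 6 libraries had 0.287 CPM or less. Epcam, an epithelial adhesion gene, was at 19.6 CPM in KO 2, 5.79 CPM in WT 3 and 0.491 CPM or less in the others. The whole list of 11 epithelial and ciliated genes, keratins included, summed to 120, 228, 18.7 and 63.3 CPM in KO mice 1 to 4, against 106, 175, 103 and 23.9 CPM in WT mice 1 to 4, so that it was highest in KO 2 and not in WT 3 among the WT mice. The same pair had the lowest adipocyte marker sums of their genotypes, 34985 CPM in KO 2 and 37344 CPM in WT 3. Fabp4 was the largest part of both sums, at 14599 CPM in KO 2 and 13987 CPM in WT 3. Among KO mice, KO 2 was lowest in Fabp4, Cidec, Adipoq, Lep, Plin4 and Pparg, but not in Plin1, Lipe, Pnpla2 and Slc2a4. Its Slc2a4, at 300 CPM, was the highest of all mice. Among WT mice, WT 3 was lowest in all 10 but Lep and Plin4. KO 2 also carried spermatid transcripts: 10 genes chosen after their values were seen, among them the protamines Prm1 and Prm2, summed to 331 CPM there and to 1.81 CPM or less in every other library, with 9 of the 10 at 0 in KO 3. Counts, medians and log2 fold changes of the subunit genes are therefore also given without KO 2 and WT 3.

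RefSeq promoter windows (build GRCm38.p6, 250 bases before to 50 after the start) were matched for 67 of the 84 members, as 73 windows. The NRF1 motif, read as GCGCA, any base and GCGC, was found on either strand in 18 of the 73 windows (24.7%), of 17 genes. It was found in 8.87% of the 13080 windows of all tested symbols and in 4.60% of all 32851 windows. The GABPA motif CCGGAAG, on either strand, was in 16 windows (21.9%), against 15.4% of the windows of tested symbols and 8.86% of all windows, and 4 windows held both. In 0 member windows did a match of one motif overlap a match of the other. By complex, the NRF1 motif was in 8 of 34 windows of complex I, 2 of 3 of complex II, 1 of 5 of complex III, 1 of 11 of complex IV and 6 of 20 of complex V. These are matches of letters and not measured binding. The windows printed here belong to Sdha, Uqcrc1 and Cox6a1, each the gene with the highest level per kilobase among the members of its complex whose window holds the motif; they are shown because each holds more than 1 copy. Capitals mark NRF1 motif matches, and each window reads 5′ to 3′ along the gene.
Sdha, chr13:74350191-74350490, minus strand: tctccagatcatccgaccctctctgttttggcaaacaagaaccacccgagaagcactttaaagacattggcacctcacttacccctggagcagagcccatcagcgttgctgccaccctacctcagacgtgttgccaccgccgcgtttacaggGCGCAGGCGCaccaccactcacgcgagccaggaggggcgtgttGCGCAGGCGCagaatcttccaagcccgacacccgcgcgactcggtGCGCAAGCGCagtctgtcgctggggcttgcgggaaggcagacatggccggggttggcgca
Uqcrc1, chr9:108936398-108936697, plus strand: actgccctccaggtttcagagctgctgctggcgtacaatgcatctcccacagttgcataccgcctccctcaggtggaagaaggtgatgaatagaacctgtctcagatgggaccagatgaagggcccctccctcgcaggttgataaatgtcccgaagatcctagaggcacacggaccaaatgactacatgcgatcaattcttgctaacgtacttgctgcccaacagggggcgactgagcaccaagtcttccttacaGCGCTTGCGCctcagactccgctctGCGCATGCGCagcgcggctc
Cox6a1, chr5:115348909-115349208, minus strand: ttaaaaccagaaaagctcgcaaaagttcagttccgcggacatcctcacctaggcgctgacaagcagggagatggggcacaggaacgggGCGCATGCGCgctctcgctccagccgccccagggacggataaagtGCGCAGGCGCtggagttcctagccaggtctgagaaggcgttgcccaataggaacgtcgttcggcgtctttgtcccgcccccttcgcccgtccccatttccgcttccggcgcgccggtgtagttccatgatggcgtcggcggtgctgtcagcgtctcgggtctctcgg
The 3 copies in the Sdha window start 98, 55 and 10 bases before the annotated start, those of Cox6a1 162 and 117 bases before it, and those of Uqcrc1 5 and 30 bases after it.

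Among these regulators themselves, Nrf1 averaged 15.2 ± 1.53 CPM in KO and 14.7 ± 0.556 CPM in WT (SD, n = 4 each), and Gabpa 42.2 ± 4.21 CPM in KO and 45.1 ± 7.06 CPM in WT. Ppargc1a, which encodes PGC-1α, was at 2.26, 8.58, 3.33 and 2.29 CPM in KO mice 1 to 4, against 2.74, 1.92, 3.97 and 4.67 CPM in WT mice 1 to 4. Its highest value was in KO 2, and the groups overlapped (log2 fold change 0.31, SE 0.48, adjusted p = 1 in edgeR).

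The levels of the members differed far more between genes than between genotypes. Divided by exon length, Cox4i1, which encodes the regulatory subunit IV of cytochrome c oxidase, was the highest at 1066 CPM per kb, followed by Atp5b, the catalytic beta subunit of the ATP synthase, at 979 CPM per kb and Atp5g3, a gene for its membrane ring, at 775 CPM per kb. The median member was at 154 CPM per kb. In complex I the range per kb ran from Ndufa4l2 at 11.5 to Ndufa4 at 567 CPM per kb; Ndufa4 is grouped here by its symbol, although its protein is now assigned to complex IV. The 4 genes of complex II lay closest together, from Sdhd at 163 to Sdha at 205 CPM per kb. Complex III ran from Uqcrb at 84.5 to Uqcrq at 431 CPM per kb. Complex IV, which holds genes restricted to other tissues, ran from Cox7b2 at 0.27 CPM per kb to Cox4i1. Complex V ran from Atp5g2 at 0.15 CPM per kb to Atp5b.

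**Figure D1:**
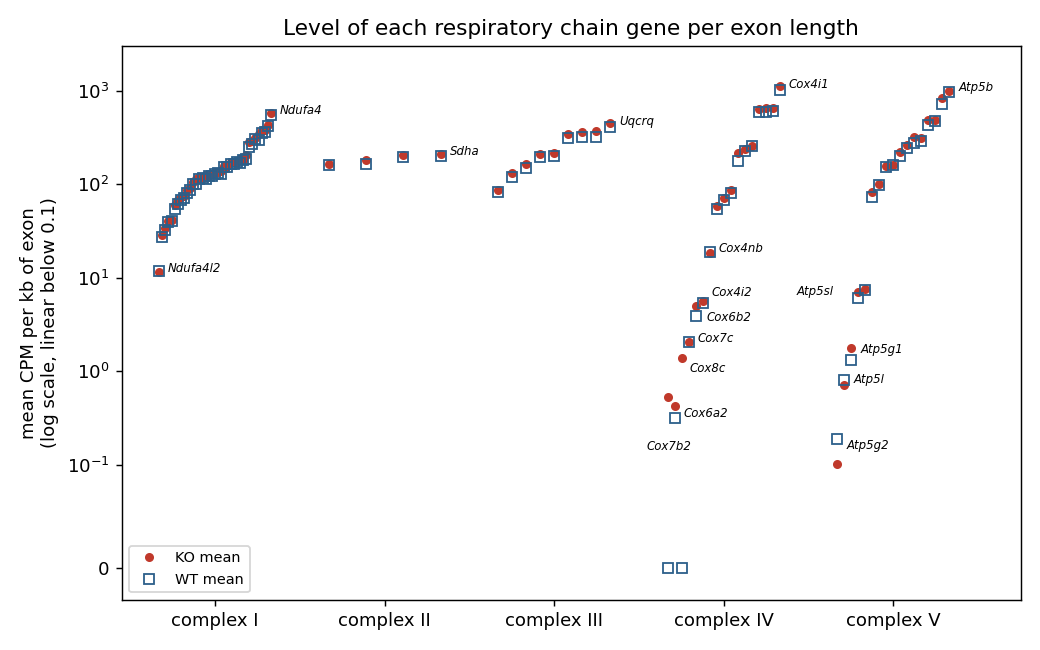
Mean level of each of the 84 members in KO (filled circles) and WT (open squares), in CPM per kb of exon on a scale that is logarithmic above 0.1, by complex and in order of level. The circle and square of most genes coincide, while genes within complexes IV and V span from under 1 CPM per kb to the 1066 CPM per kb of Cox4i1.

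Some genes that every cell needs were listed at very low levels. Cox7c, an obligate subunit of complex IV, had 364 counts over all 8 libraries, a mean of 0.923 CPM, and Atp5l, the g subunit of the ATP synthase, had 0.386 CPM. Stretches of 50 bases were read from the longest annotated protein-coding transcript of each member. That transcript can hold bases outside the counted exons, as in Atp5g1 (4715 bases, against 868 counted). For Atp5l, 84.8% of the stretches also occur in other annotated genes, 12 pseudogenes among them, and for Cox7c the share was 27.9%. Atp5g1, Atp5g2 and Atp5g3 encode the same mature ring protein; Atp5g3 averaged 560 ± 162 CPM in KO and 492 ± 66.0 CPM in WT, while Atp5g1 was listed at 1.54 ± 0.636 CPM in KO and 1.15 ± 0.311 CPM in WT. Atp5g2 had 37 counts over all libraries, 0.0664 ± 0.0194 CPM in KO and 0.122 ± 0.0567 CPM in WT. Atp5g1 shares stretches with 6 pseudogenes and Atp5g2 with 2, and 11.6% and 14.8% of their stretches occur in other annotated genes. How reads that map to several places were counted is not given in the sources used here, so these low levels are uncertain. In all, 26 members share more than 10% of the 50-base stretches of that transcript with other annotated genes. Among them are Atp5h (47.9%), Uqcrb (43.4%), Ndufs3 (39.7%) and Ndufb4 (37.0%), and their levels are less certain too. Atp5h and Uqcrb were nevertheless listed at means of 44.4 and 42.5 CPM. Whether shared stretches account for the low levels was not tested. Exon bases were shared with a neighbouring gene in 9 members, from 3.5% in Ndufa4l2 to 27.5% in Ndufa13. Whether counting used strand is not given, so the gene of origin of reads there is uncertain.

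No member passed a test of KO against WT. In the edgeR quasi-likelihood test 0 of the 81 tested members passed an adjusted p of 0.05, against 2 of 14493 genes (0.0138%). At an unadjusted p under 0.05 there were 0 members, against 323 genes (2.23%), and in 0 members were the KO and WT libraries without overlap, against 209 genes (1.44%). DESeq2 and limma voom also called 0 members. The smallest p belonged to Atp5e, the epsilon subunit of the ATP synthase stalk, at 215, 218, 174 and 199 CPM in KO mice 1 to 4, against 181, 196, 150 and 179 CPM in WT mice 1 to 4. WT 3 was its lowest library and the groups overlapped (log2 fold change 0.19, SE 0.12, unadjusted p = 0.134, adjusted p = 1; 0.09 without KO 2 and WT 3).

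The members nevertheless lay mostly on the same side of 0. In all 8 libraries 76 of 81 log2 fold changes were above 0, against 53.1% of all tested genes, with a median of 0.09 (quartiles 0.05 and 0.14) against 0.01 over all genes. Log2 fold changes ran from -0.17 to 0.42, and the median was 0.08 in complex I (35 of 37 above 0), 0.08 in complex II (4 of 4), 0.12 in complex III (9 of 9), 0.09 in complex IV (14 of 15) and 0.10 in complex V (14 of 16). The members vary together across mice, so these counts are a description and not independent observations. Without KO 2 the members split into 41 above and 40 below 0 with a median of 0.0009, against 49.9% of all genes above 0. Without WT 3 alone, 51 of 81 members were above 0 with a median of 0.02, and 27 signs turned. Without both KO 2 and WT 3 the median was -0.06 and 22 of 81 members were above 0, against 48.8% of all genes. The signs of 56 members then differed from those with all mice. KO 2 was the highest and WT 3 the lowest mouse in most members, so leaving both out lowers most log2 fold changes by construction. The values without the pair show how far the result rests on these mice and are no independent evidence of a direction.

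**Figure D2:**
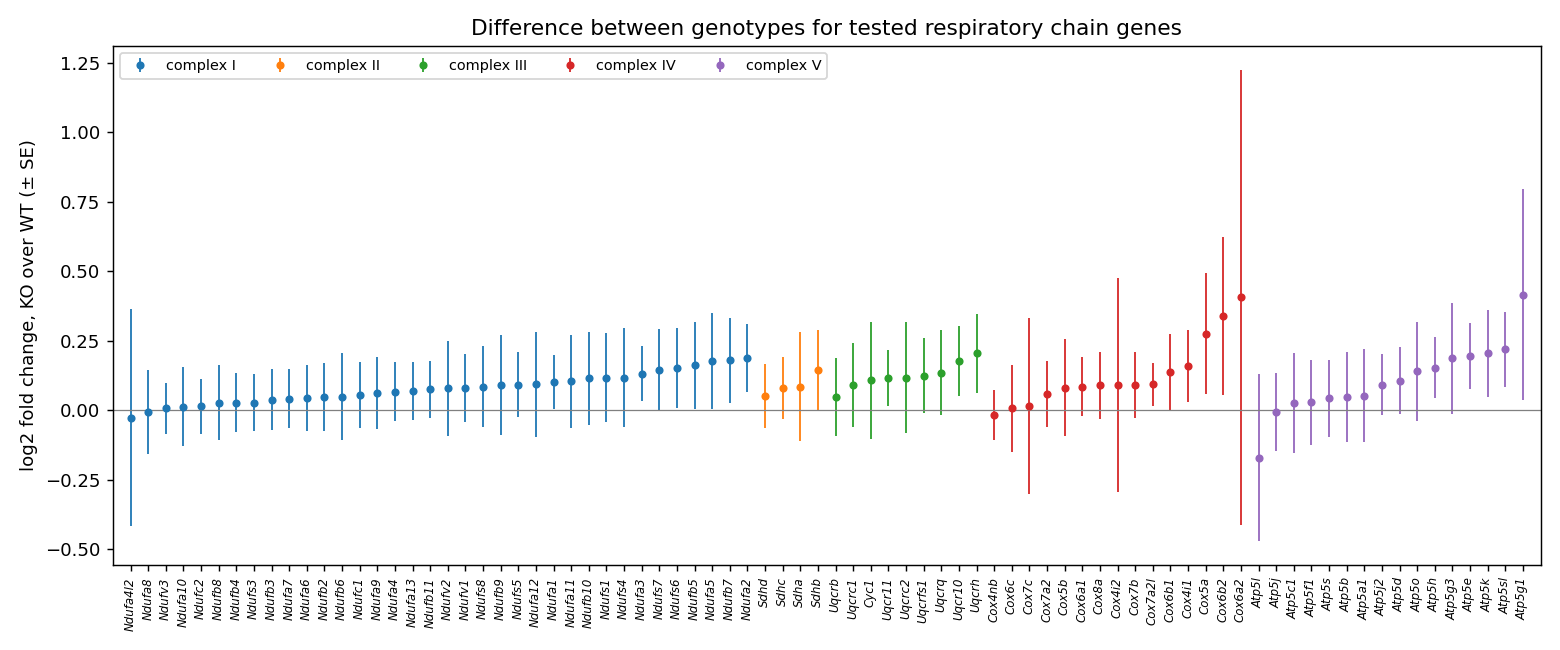
Log2 fold change of KO over WT with its SE for 80 of the 81 tested members, all 8 libraries, ordered within complexes I to V. Most points lie just above 0, between 0 and 0.2, and Cox6a2, at under 1 CPM, has the widest bar.

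The level of the whole group of genes was then read mouse by mouse. All members together summed to 14556, 18507, 15050 and 13751 CPM in KO mice 1 to 4, against 14666, 15907, 12371 and 15099 CPM in WT mice 1 to 4. KO 2 was the highest and WT 3 the lowest, and the other 6 mice overlapped. As a percentage of the TMM-scaled library size this was 1.55 ± 0.21% in KO and 1.45 ± 0.15% in WT (SD, n = 4 each). On this scale the difference was smaller than the SD of either genotype. KO 2 was the highest of the 8 libraries in 61 of 81 members (75.3%), against 18.6% of all tested genes, and WT 3 the lowest in 62 of 81 (76.5%), against 11.0%. The median member of KO 2 lay 0.31 above its mean over the 8 libraries on the log2 scale and that of WT 3 lay 0.25 below it (-0.25), while the other mice were between -0.06 and 0.09. The excess in KO 2 was present in each complex, with median deviations of 0.29 in complex I, 0.24 in complex II, 0.36 in complex III, 0.26 in complex IV and 0.33 in complex V. Both mice had the highest Foxj1 and Epcam and the lowest adipocyte marker sums of their genotypes, while their members lay on opposite sides. Fabp4 was the largest part of those adipocyte sums, and not every adipocyte marker was low in KO 2. The whole epithelial and ciliated list was not highest in WT 3 among the WT mice. The part of these markers in the members' levels was not tested.

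**Figure D3:**
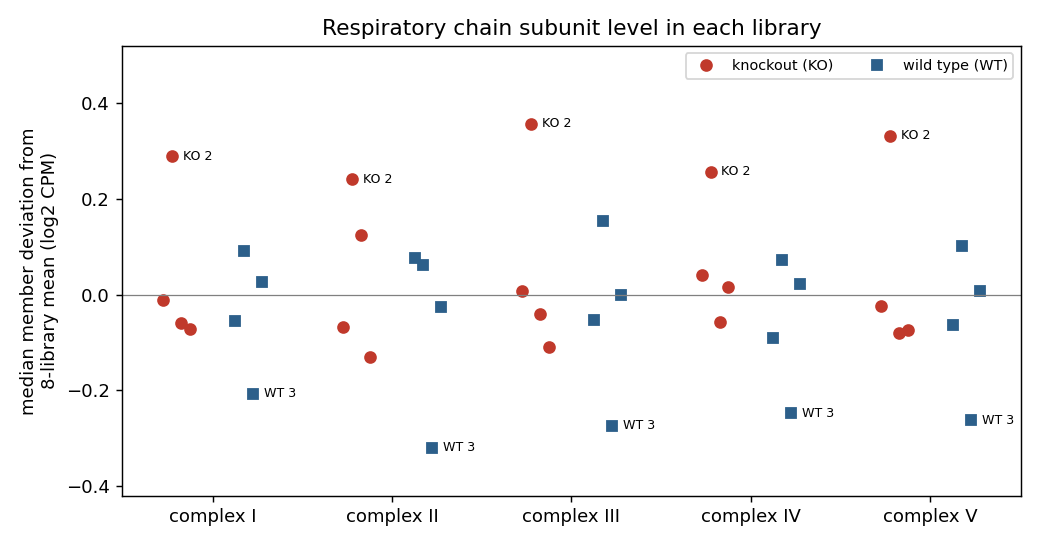
Median deviation of the tested members of each complex from their 8-library mean, in log2 CPM, one point per mouse, KO mice (circles) left of WT mice (squares). In every complex KO 2 is the highest point, between 0.24 and 0.36, and WT 3 the lowest, between -0.32 and -0.21.

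Complex I takes electrons from NADH. Of its core subunits, Ndufv1 binds NADH and was at 244, 307, 281 and 249 CPM in KO mice 1 to 4, against 258, 259, 218 and 289 CPM in WT mice 1 to 4 (log2 fold change 0.08, SE 0.12, and -0.06 without KO 2 and WT 3). Ndufs1, the largest subunit, with iron-sulphur clusters, was at 158, 206, 192 and 139 CPM in KO and 179, 176, 127 and 158 CPM in WT mice. Both were highest in KO 2 and lowest in WT 3, with overlap of the other mice. Ndufs7, near the quinone site, averaged 141 ± 22.7 CPM in KO and 128 ± 18.1 CPM in WT. The median log2 fold change of the 7 nuclear-encoded core subunits was 0.08, with all 7 above 0, and -0.07 without KO 2 and WT 3, with all 7 below 0. Among accessory subunits, the smallest p values were those of Ndufa2 (180 ± 24.8 CPM in KO, 158 ± 13.6 CPM in WT, log2 fold change 0.19, SE 0.12, and 0.06 without KO 2 and WT 3) and Ndufa3 (134 ± 13.3 CPM in KO, 122 ± 7.45 CPM in WT). Ndufa8 averaged 133 ± 20.1 CPM in KO and 134 ± 23.7 CPM in WT; it and Ndufa4l2 were the complex I members below 0. A few accessory subunits did not follow the rest across mice: Ndufb4, Ndufa7 and Ndufa1 correlated with the mean of the other members at r = -0.26, -0.11 and 0.07 over the 8 libraries, where the median member had r = 0.88. These correlations share libraries and scaling and are given as a description.

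Complex II is succinate dehydrogenase and belongs to both the chain and the citric acid cycle. Sdha, its flavoprotein, was at 506, 698, 732 and 480 CPM in KO mice 1 to 4, against 687, 608, 429 and 554 CPM in WT mice 1 to 4. Here KO 3 was the highest mouse and WT 3 the lowest (log2 fold change 0.08, SE 0.20, and -0.10 without KO 2 and WT 3). Sdhb, the iron-sulphur subunit, was at 172, 230, 214 and 167 CPM in KO and 191, 189, 144 and 185 CPM in WT mice (log2 fold change 0.14, SE 0.14, and -0.03 without KO 2 and WT 3). The membrane anchors Sdhc and Sdhd averaged 241 ± 18.5 and 213 ± 20.6 CPM in KO and 228 ± 24.1 and 206 ± 21.4 CPM in WT. WT 3 was the lowest of the 8 mice in all 4 genes.

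Complex III passes electrons from ubiquinol to cytochrome c. Uqcrfs1, the Rieske iron-sulphur protein, was at 204, 261, 201 and 186 CPM in KO mice 1 to 4, against 206, 208, 165 and 203 CPM in WT mice 1 to 4. Cyc1, cytochrome c1, was at 217, 365, 247 and 199 CPM in KO and 218, 293, 192 and 252 CPM in WT mice. KO 2 exceeded every other mouse in both genes, and Cyc1 had a log2 fold change of 0.11 (SE 0.21) with all mice and -0.20 without KO 2 and WT 3. Uqcrc1, a core protein, averaged 345 ± 63.4 CPM in KO and 324 ± 36.7 CPM in WT. The smallest p values of the complex were those of Uqcrh, the hinge protein (200 ± 26.7 CPM in KO, 174 ± 27.2 CPM in WT, log2 fold change 0.20, SE 0.14, unadjusted p = 0.187, edgeR adjusted p = 1) and of Uqcr10 (160 ± 22.2 CPM in KO, 141 ± 15.4 CPM in WT). Without KO 2 and WT 3 the log2 fold change of Uqcrh was 0.03. Cycs, which encodes cytochrome c itself and lies outside the symbol rule, averaged 15.5 ± 6.84 CPM in KO, with 25.2 CPM in KO 2, and 12.8 ± 3.82 CPM in WT.

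Complex IV reduces oxygen. Cox4i1 was at 736, 898, 692 and 728 CPM in KO mice 1 to 4, against 678, 727, 597 and 733 CPM in WT mice 1 to 4 (log2 fold change 0.16, SE 0.13, and 0.01 without KO 2 and WT 3). Cox5a, which neighbours it in the complex, was at 139, 216, 110 and 131 CPM in KO and 105, 155, 107 and 126 CPM in WT mice. KO 2 was the highest mouse for both, and the remaining KO mice lay within or next to the WT range. Cox5a had the largest log2 fold change among complex IV members above 10 CPM (0.28, SE 0.22), which was -0.02 without KO 2 and WT 3. Cox7a2l had the smallest spread of all members at 10 CPM or more and averaged 67.1 ± 2.36 CPM in KO and 62.9 ± 3.68 CPM in WT. The endoplasmic reticulum gene Cox4nb averaged 91.2 ± 6.26 CPM in KO and 92.3 ± 6.17 CPM in WT and did not follow the subunits across mice (r = -0.06).

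Several complex I and IV subunits have a partner gene used in other tissues or in low oxygen, and the balance between partners was compared as a percentage of CPM in 4 ratios, each by an exact two-sided permutation test over the 70 possible arrangements of the mice, with adjustment over the 4 ratios. Ndufa4l2, a low-oxygen paralogue, was at 1.71, 3.67, 5.77 and 4.62% of Ndufa4 in KO mice 1 to 4, against 3.10, 2.14, 7.06 and 4.45% in WT mice 1 to 4. The values scattered over the same range in both genotypes (3.94 ± 1.72% in KO and 4.19 ± 2.14% in WT, exact p = 0.886, adjusted p = 0.886). Ndufa4l2 itself had the widest spread of all members at 10 CPM or more and ran against the rest across mice (r = -0.38). Cox4i2, a lung and low-oxygen form, was at 0.535 ± 0.193% of Cox4i1 in KO and 0.581 ± 0.272% in WT (exact p = 0.857, adjusted p = 0.886). Cox6a2, the heart and muscle form, was at 0.0828 ± 0.0748% of Cox6a1 in KO and 0.0670 ± 0.0479% in WT (exact p = 0.771, adjusted p = 0.886), at 0.512 CPM or less in every mouse. Cox6b2, the testis form, was at 0.895 ± 0.217% of Cox6b1 in KO and 0.799 ± 0.115% in WT (exact p = 0.514, adjusted p = 0.886). The somatic partners Cox6a1, Cox6b1 and Cox7a2 averaged 337 ± 13.8, 328 ± 41.1 and 179 ± 17.5 CPM in KO and 318 ± 31.3, 299 ± 38.6 and 172 ± 20.2 CPM in WT.

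Testis-restricted subunits were found in a single mouse. Cox8c had 127 counts in KO 2 (2.61 CPM) and 0 in each of the other 7 libraries, where a count of 0 allows up to 0.0632 CPM. Cox7b2 had 56 counts in KO 2 (1.15 CPM) and 0 in each of the others. Cox6b2, which has a level in every mouse, was also highest in KO 2, at 2.89, 4.42, 1.85 and 2.82 CPM in KO mice 1 to 4, against 2.81, 2.45, 2.07 and 2.16 CPM in WT mice 1 to 4. The same library held the spermatid transcripts, with Prm2 at 103 CPM against 0.546 CPM or less in every other library. The part of these cells in the levels of the other members was not tested. The limit given by a count of 0 covers counting error only.

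**Figure D4:**
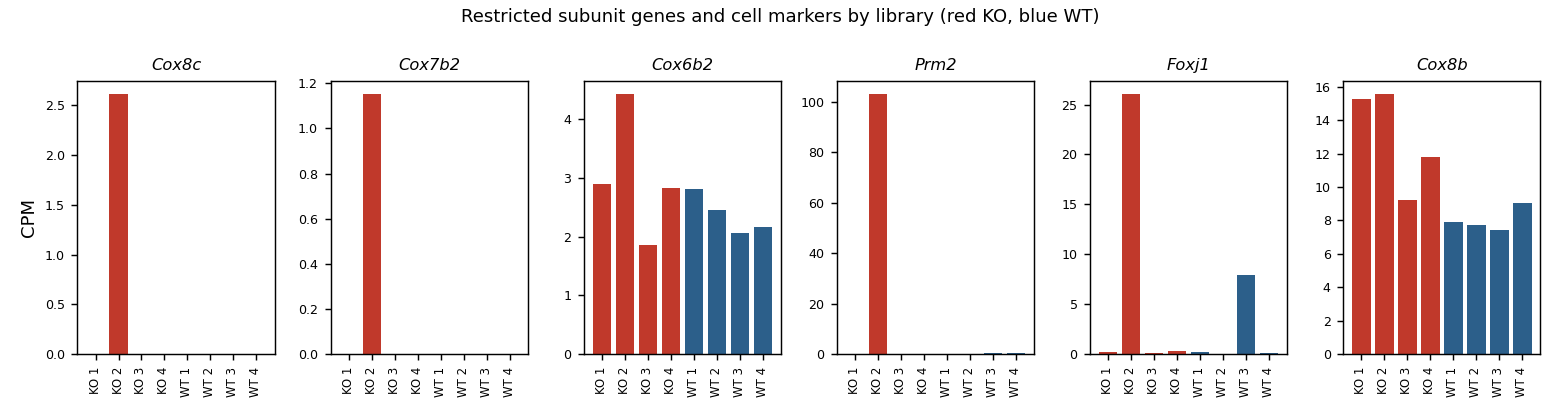
CPM of 3 testis-enriched subunit genes (Cox8c, Cox7b2, Cox6b2), the protamine Prm2, the ciliary regulator Foxj1 and the muscle and brown fat subunit Cox8b in each library, KO mice (red) left of WT mice (blue), each panel with its own scale from 0. Cox8c and Cox7b2 appear in KO 2 only, Prm2 and Foxj1 stand out there, and for Cox8b the 4 KO bars (9.22 to 15.6 CPM) are above the 4 WT bars (7.40 to 9.03 CPM).

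Cox8b and Cox7a1, subunits of muscle and brown fat that the symbol rule leaves out, did not overlap between genotypes, and both were singled out with their values already known. Cox8b was at 15.3, 15.6, 9.22 and 11.8 CPM in KO mice 1 to 4, against 7.92, 7.71, 7.40 and 9.03 CPM in WT mice 1 to 4. Cox7a1 was at 8.93, 6.17, 4.74 and 6.22 CPM in KO and 4.64, 4.53, 4.34 and 3.75 CPM in WT mice. In both genes every KO mouse was above every WT mouse, where 1.44% of all tested genes have groups that do not overlap in either direction, and neither passed in edgeR (Cox8b log2 fold change 0.69, SE 0.18, and Cox7a1 0.59, SE 0.21, adjusted p = 1 for both). The libraries of their partners Cox8a and Cox7a2 overlapped between genotypes. As a percentage of Cox8a, Cox8b was at 3.65 ± 0.69% in KO and 2.42 ± 0.19% in WT, and as a percentage of Cox7a2, Cox7a1 was at 3.66 ± 1.05% in KO and 2.53 ± 0.39% in WT. Ucp1, the uncoupling protein of brown fat, had too few counts to be tested, with 7, 23, 10 and 10 counts (0.139, 0.473, 0.211 and 0.205 CPM) in KO mice 1 to 4, against 2, 1, 4 and 0 counts (0.0413, 0.0196, 0.0779 and 0 CPM) in WT mice 1 to 4. For Ucp1 every KO mouse was above every WT mouse, at 23 counts or fewer. The share of 1.44% covers tested genes only and does not apply to it. The summed level of 10 brown and beige adipocyte genes, Cox8b and Cox7a1 among them, was 74.1 to 97.0 CPM in KO and 58.4 to 114 CPM in WT. Kcnk3 was the largest part of this sum in every mouse, at 38.4 to 54.8 CPM in KO and 31.4 to 90.5 CPM in WT. The sum therefore says little about the other genes of the list. Apart from Cox8b, Cox7a1 and Ucp1, every gene of the list overlapped between genotypes. Log2 fold changes were -0.40 for Kcnk3 and -0.02 for Elovl3, and 0.22 to 0.60 for Otop1, Cidea, Ppargc1a and Dio2. Cpt1b, at 3 counts or fewer in each mouse, was not tested. Summed skeletal muscle markers were at 14.3 to 47.6 CPM in KO and 36.6 to 81.7 CPM in WT. Acta1 was the largest part of this sum in every mouse, at 10.8 to 42.8 CPM in KO and 30.6 to 78.9 CPM in WT. The muscle genes Ckm, Myh1, Myh2 and Myh4 were at 0.468 CPM or less in every mouse. The muscle sum therefore says little about muscle genes other than Acta1.

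Complex V makes ATP. Atp5b was at 1722, 2170, 2081 and 1504 CPM in KO mice 1 to 4, against 1933, 1872, 1508 and 1926 CPM in WT mice 1 to 4. Atp5a1, the alpha subunit, was at 1057, 1482, 1239 and 982 CPM in KO and 1230, 1294, 960 and 1111 CPM in WT mice. The groups overlapped almost entirely: the log2 fold change of Atp5b was 0.05 (SE 0.16) and that of Atp5a1 was 0.05 (SE 0.17), and without KO 2 and WT 3 they were -0.11 for Atp5b and -0.15 for Atp5a1. Atp5c1, the rotating gamma subunit, averaged 279 ± 67.6 CPM in KO and 274 ± 38.7 CPM in WT. Atp5g3 was at 514, 800, 462 and 465 CPM in KO and 453, 577, 429 and 511 CPM in WT mice, with KO 2 far above the rest. Its log2 fold change was 0.19 (SE 0.20) with all mice and -0.10 without KO 2 and WT 3. Atp5j, a peripheral stalk subunit, averaged 120 ± 23.4 CPM in KO and 121 ± 10.9 CPM in WT. Of the 2 members that are not subunits, Atp5sl averaged 16.7 ± 2.86 CPM in KO and 14.4 ± 0.846 CPM in WT (log2 fold change 0.22, SE 0.13, unadjusted p = 0.138, edgeR adjusted p = 1; 0.26 without KO 2 and WT 3), and Atp5s 11.3 ± 1.09 CPM in KO and 10.9 ± 1.58 CPM in WT.

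**Figure D5:**
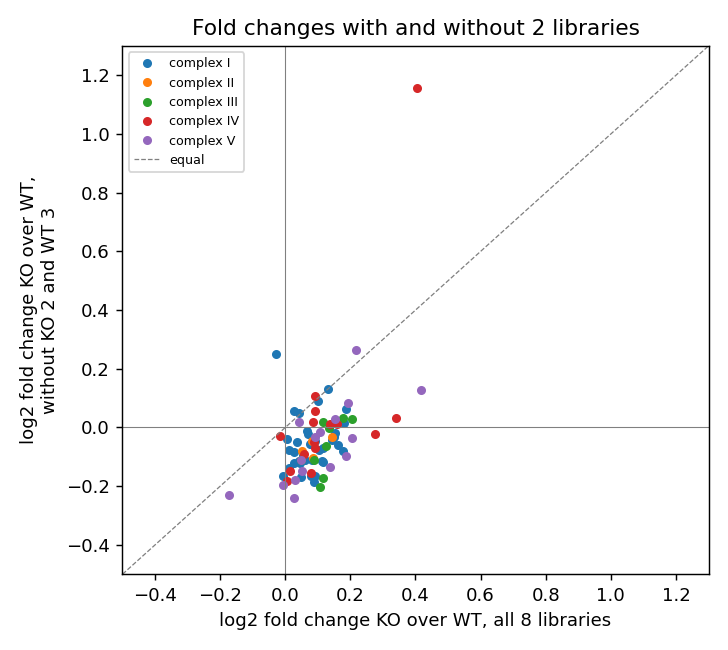
Log2 fold change of KO over WT for the 81 tested members without mice KO 2 and WT 3 (vertical axis) against that with all 8 mice (horizontal axis), coloured by complex, with the line of equal values. Most points lie right of 0 and below 0, and the point far above the line is Cox6a2 (0.41 with all mice, 1.16 without the pair).

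Macrophage markers also differed between mice: 11 genes summed to 1910, 717, 781 and 3096 CPM in KO mice 1 to 4, against 586, 767, 1553 and 1129 CPM in WT mice 1 to 4, and Cd68 averaged 65.2 ± 51.6 CPM in KO and 34.8 ± 22.3 CPM in WT. KO 2, the mouse with the highest subunit levels, was the lowest KO mouse in this list, and WT 3, the mouse with the lowest subunit levels, the highest WT mouse. Adipoq, the adipocyte hormone adiponectin, averaged 5110 ± 1356 CPM in KO and 5243 ± 1298 CPM in WT. The part of the cell mixture in the subunit levels was not tested.

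Other mitochondrial gene lists were set beside the subunits, and in none did a gene pass the adjusted p in edgeR. The citric acid cycle, which supplies the chain with NADH and succinate, had 16 of 17 genes above 0 (median log2 fold change 0.04), and 1 of 17 above 0 without KO 2 and WT 3 (median -0.11). The mitochondrial ribosome, which translates the mitochondrially encoded subunits, had 30 of 40 genes above 0 (median 0.04), and 7 of 40 without the pair (median -0.08). Fatty acid oxidation had 15 of 18 above 0 (median 0.11) and 9 of 18 without the pair (median -0.00083). The assembly factors of the complexes had 18 of 31 above 0 (median 0.04), and 8 of 31 without the pair (median -0.10). Regulators of mitochondrial biogenesis had 12 of 17 above 0 (median 0.08) and carriers and uncouplers 5 of 8 (median 0.08), with 7 of 17 and 2 of 8 without the pair. The 9 subunits and partners outside the symbol rule, Cox8b, Cox7a1 and Cycs among them, had 6 above 0 (median 0.15), and 5 without the pair (median 0.02). Without KO 2 and WT 3 the median was thus below 0 in each of these lists other than that of the partners, and close to 0 in fatty acid oxidation. Without KO 2 alone, fatty acid oxidation had 13 of 18 above 0 (median 0.07) and the citric acid cycle 6 of 17 (median -0.05). For the lists too, values without the pair are no independent evidence of a direction.

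In each list the gene with the smallest p is given. Cox11, a copper chaperone of complex IV, was at 10.9, 10.1, 9.73 and 11.6 CPM in KO mice 1 to 4, against 8.33, 8.57, 7.95 and 9.47 CPM in WT mice 1 to 4. Every KO mouse was above every WT mouse, as in 1.44% of all genes, and it did not pass (log2 fold change 0.30, SE 0.12, unadjusted p = 0.0314, edgeR adjusted p = 1). Hadhb, of the mitochondrial trifunctional protein, averaged 48.7 ± 3.14 CPM in KO and 42.6 ± 8.56 CPM in WT, and Dlst, of the oxoglutarate dehydrogenase complex, 271 ± 33.1 CPM in KO and 251 ± 23.9 CPM in WT. Mrps12 averaged 42.5 ± 2.59 CPM in KO and 38.8 ± 5.41 CPM in WT. Esrrg, an orphan nuclear receptor that acts on mitochondrial genes, averaged 3.22 ± 0.488 CPM in KO and 2.09 ± 0.978 CPM in WT (log2 fold change 0.63, SE 0.37). Ucp2, which macrophages also express, averaged 369 ± 132 CPM in KO and 290 ± 83.2 CPM in WT. None of these differences passed. The symbols looked for as mitochondrially encoded subunits were not found among the counted symbols, so these subunits were not analysed.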

How the data were processed

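RNA from whole perigonadal adipose tissue of 4 KO and 4 WT mice was sequenced on an Illumina HiSeq4000, per the labels' protocols. For each mouse the authors deposited a table of whole-number counts, 1 row per gene symbol. The submitters' processing notes list STAR 2.4.0g1, featureCounts, Cufflinks, FastQC 0.11.2, edgeR and the mm10 genome without their roles. Whether counting used strand, and how multi-mapping reads were treated, is not given in the sources used here. Groups came from the labels, which do not say more about how the mice were bred. No library duplicated another (smallest chi-square per degree of freedom between mice of the same genotype 66.4).

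The counts were tested in edgeR 4.0.16 (R 4.3.3; filterByExpr, TMM factors 0.966 to 1.05, robust quasi-likelihood F test, no covariate), which kept 14493 genes, with Benjamini-Hochberg adjustment over all of them and a threshold of 0.05. SEs are those implied by the F statistic. Levels are TMM-scaled CPM; levels per kb divide by the exon union of the authors' deposited gene annotation. At 46444435 to 51431956 counts per library, genes above a few CPM are limited by differences between mice (common biological coefficient of variation 0.301) more than by counting error. Alternatives were DESeq2 1.42.0, limma 3.58.1 voom, scaling by median-ratio size factors or by total counts, a low-count filter of 1 CPM in 4 libraries or none, the replicate block, leaving out each mouse, and KO 2 with WT 3 left out because of epithelial genes described in earlier results.

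Exon bases are shared with another symbol in 9 members (Ndufa13, Atp5j, Atp5f1, Uqcrc2, Cox6a2, Ndufs1, Ndufb11, Ndufa2 and Ndufa4l2), whose counts are less certain. Named genes were core subunits, members with a paralogous partner, per complex the smallest p in each direction and the highest and lowest level per kb, members that are not subunits, members with a library far from the others, marker and thermogenic genes, and the smallest p of each list. The members, lists and tests were chosen with earlier results of these data known. Promoter windows came from RefSeq. The targeted gene and the single values of 1 member are not reported here.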

Additional observations from a re-analysis of the deposited data

Results flagged for a closer look

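In 19 of 178 sets of 4 values 1 mouse lay farther from the other 3 than Dixon's 95% critical value allows, where chance gives about 8.9; the sets share mice and are not independent. KO 2 was high in 12 of them. Cox8c and Cox7b2, which are among these, had counts in KO 2 only. Both met the count rule through that mouse and were flagged by construction. The complex I and complex III sums among them are made of members that were also examined singly. Among complex I members it had 57.1 CPM of Ndufa12 against 36.2 to 37.9 CPM in the other KO mice, 340 CPM of Ndufb9 against 206 to 221 CPM, 114 CPM of Ndufa6 against 87.2 to 91.6 CPM, 237 CPM of Ndufb10 against 158 to 169 CPM and 107 CPM of Ndufs8 against 73.5 to 75.7 CPM. Among ATP synthase members it had 235 CPM of Atp5o, 799.965 CPM of Atp5g3 and 187 CPM of Atp5f1, and the testis-restricted Cox8c and Cox7b2 were at 2.61 and 1.15 CPM. Its summed level was 5549 CPM in complex I and 2298 CPM in complex III, against 4353 to 4517 and 1610 to 1725 CPM in the other KO mice.

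WT 3 was low in 6: Atp5b (1508 CPM against 1872 to 1933 CPM in the other WT mice), Uqcrfs1 (165 CPM), Ndufa7 (129 CPM), Sdhb (144 CPM), Cox4nb (83.1 CPM) and Ndufb11 (65.1 CPM). KO 1 was high in Ndufa1, at 77.2 CPM against 63.8 to 65.9 CPM in the other KO mice.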

How the results depend on the processing

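In every setting run, 0 members passed the adjusted p. Without KO 1 and without KO 3 there was 1 member each at an unadjusted p under 0.05. Of all genes, 17 passed in DESeq2 and 0 in limma voom, without a low-count filter, with total counts, with any 1 library left out (0 to 0) and without KO 2 and WT 3.

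The medians over all members and in each complex kept their sign under other scalings, filters and tests, and when only true subunits or members at 2 CPM or more were kept (settings added after seeing the data), and total counts, which moved the median of all genes to 0.04, put 79 of 81 members above 0. Leaving out libraries turned it: without KO 2 and WT 3 the median was -0.057 over all members, -0.0702 in complex I, -0.0629 in complex II, -0.062 in complex III, -0.0226 in complex IV and -0.0662 in complex V, and the log2 ratio of summed member CPM was -0.0751, against 0.0919 with all mice. With 1 mouse left out at a time, the median ranged from -0.012 to 0.12 in complex I (lowest without KO 2) and from -0.0046 to 0.15 in complex II (lowest without WT 3), and the log2 ratio of summed member CPM from -0.00586 to 0.144 (lowest without KO 2). KO 2 and WT 3 were the highest and the lowest mouse in most members, so the fall of the medians without them followed from that choice. The part of each library's cell mixture in these changes was not tested. Genes under about 1 CPM, such as Cox6a2 and Atp5l, are limited by depth.

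No sign was seen that the replicate numbers in the labels pair the mice. Deviations from the group means of same-numbered mice correlated at 0.12, -0.02, -0.32 and -0.02. No KO mouse correlated best with the WT mouse of its own number. These correlations cannot exclude a pairing that left little mark on expression. With the replicate number as a block, 0 genes passed, 75 members were above and 6 below 0, and the smallest unadjusted p of a member was 0.0524 in edgeR.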
